A study of Mus musculus with 14 samples.

Results

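The genes described here make up the amino acid response driven by the transcription factor ATF4, together with the cytosolic aminoacyl-tRNA synthetases, in mouse duodenal mucosa before and after a meal. The set was defined by name and had 35 members, of which 34 were measured among the 18193 genes with a single-gene probe set on the array. Pycr1 was not analysed here. Members were grouped by role into 10 stress regulators, 9 amino acid enzymes, 3 amino acid transporters and 12 tRNA synthetases. Each gene was represented by the probe set with the highest mean over the 14 arrays.

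Male C57BL6 mice, reported as 12 weeks old, were acclimated on a low-fat (LF) diet and fasted for 12 h. A pool of 20 mice was collected in the fasting state (Fasting). The other mice ate freely from an LF meal with 10% of calories from fat or a high-fat (HF) meal with 60%, and pools of 20 mice per meal and time were collected at 3 times from the start of the meal, namely 30 min, then 1 h, then 3 h (LF30min, LF1h, LF3h, HF30min, HF1h and HF3h). The labels name no mutation or drug in any group. RNA of scraped mucosa was pooled within each group, and each of the 7 pools was hybridised to 2 Affymetrix arrays. Both arrays of a group carried the same pooled RNA, so every p-value below measures array error and none measures the spread between mice. All comparisons with fasting share the same 2 fasting arrays.

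When amino acids run short or the endoplasmic reticulum is stressed, kinases such as GCN2 and PERK phosphorylate the translation factor eIF2, which slows protein synthesis in general and favours translation of the Atf4 mRNA. The ATF4 protein then pairs with C/EBP family members and activates genes for amino acid uptake, amino acid synthesis and the charging of tRNAs, along with regulators that feed back on the response. Because much of this control acts on translation, the level of the Atf4 mRNA and the levels of ATF4 target mRNAs need not move together.

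ATF4 and its partners bind the C/EBP-ATF response element, so the starts of the members were searched for it. The letters TGATGNAA and their reverse complement TTNCATCA were looked for on both strands of the RefSeq window from 250 bases before to 50 bases after the start of each gene (GRCm38.p6). The 8 letters were present in 10 of the 28 members with a window (35.7%), compared with 468 of 14452 measured genes (3.24%) and 1219 of 27025 RefSeq genes (4.51%). Members are known ATF4 targets in large part, so this share describes the list. By role, the letters were present in 5 of 8 tRNA synthetases, 3 of 10 stress regulators, 1 of 8 amino acid enzymes and 1 of 2 transporters. A match is only a description of the letters, and no match says nothing about binding elsewhere.

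The stretches below are shown for the members that changed after a meal and carried the letters, and for Tars, which carried them and passed no test against fasting. Each reads 5′ to 3′ along the gene's own strand, with the matching 8 letters in capitals. The Trib3 stretch lies at chr2:152344028-152344057 (minus strand) with the match starting 15 bases after the gene start, and the Chac1 stretch at chr2:119351038-119351067 (plus strand) with the match starting at position -193. The Nupr1 stretch lies at chr7:126625562-126625591 (minus strand), and the Asns stretch at chr6:7693214-7693243 (minus strand). The Iars stretch lies at chr13:49682126-49682155 (plus strand), and the Tars stretch at chr15:11399655-11399684 (minus strand).
Trib3: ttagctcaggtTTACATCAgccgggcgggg
Chac1: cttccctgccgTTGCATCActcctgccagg
Nupr1: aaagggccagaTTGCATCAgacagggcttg
Asns: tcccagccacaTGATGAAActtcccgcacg
Iars: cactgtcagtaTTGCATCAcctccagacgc
Tars: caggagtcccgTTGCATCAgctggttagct
In the Asns stretch the letters read along the gene's strand. In the other stretches they read on the opposite strand and so appear as the reverse complement. Members called in a comparison with fasting carried the letters in 5 of 9 windows, and members not called carried them in 5 of 19.

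Because Chac1 showed the largest change of the set, the 250 bases before its start are also given (GRCm38.p6, chr2:119350992-119351241, plus strand), with the match in capitals.
Chac1 upstream: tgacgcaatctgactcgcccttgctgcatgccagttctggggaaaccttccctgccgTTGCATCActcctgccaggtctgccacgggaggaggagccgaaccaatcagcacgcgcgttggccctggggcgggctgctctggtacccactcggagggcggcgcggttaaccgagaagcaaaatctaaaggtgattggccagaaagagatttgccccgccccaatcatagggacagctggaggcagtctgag

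All values below are log2 RMA values, and a change is the difference between the means of 2 pools with its standard error (SE). A change was called when its adjusted p was under 0.05 in limma, with Benjamini-Hochberg adjustment over all probe sets tested in that comparison. Array medians lay between 4.47 and 4.55. A pool mean under 6 was treated as dim, and changes that start there may be understated because background forms more of the signal. Of the 34 members, 23 had a mean of 6 or more.

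Most stress regulators rose in at least 1 fed pool, and most other members had no call. Over the 6 fed pools and on the probe sets used, 22 of 204 changes from fasting were called, and every one of the 22 was a rise. These rises came from 10 members, namely 7 of the 10 stress regulators, 1 of the 9 amino acid enzymes, 1 of the 3 transporters and 1 of the 12 tRNA synthetases. Atf4 rose in 5 of the 6 fed pools, Trib3 and Chac1 were highest at 3 h, and Asns, the asparagine synthetase, rose by up to 0.66.

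**Figure D1:**
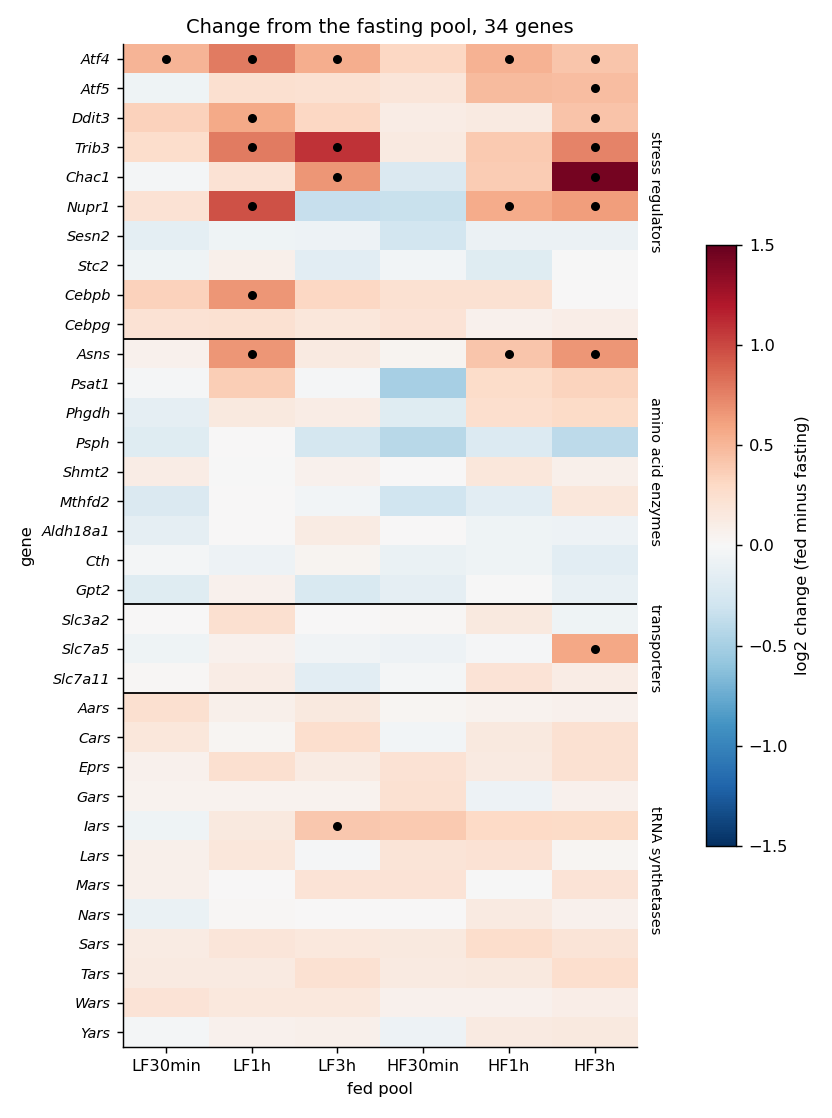
Heat map of the log2 change from the fasting pool for the 34 genes (rows, grouped by role) in the 6 fed pools (columns); a black dot marks an adjusted p under 0.05 in limma. The dots lie mostly on the stress regulators at LF1h, LF3h and HF3h, with Atf4 marked in 5 pools, and no dot lies on a blue cell.

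At LF30min, 1 member was called higher (2.94% of members, against 0.335% of all genes called higher). At LF1h, 6 were called higher (17.6%, against 1.18% of all genes and 2.35% of genes with a mean of 6 or more). At LF3h, 4 were called higher (11.8%, against 3.13%).

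After the HF meal, 0 members were called at HF30min by limma (1.12% of all genes were called there in either direction). At an unadjusted p under 0.05, 10 members differed from fasting at HF30min, with 5 higher and 5 lower. The adjusted count there was 4 with limma-trend, 2 among members with a mean of 6 or more and 1 with all probe sets of a gene averaged. The share of all genes is not given for the unadjusted threshold or for these alternatives, so these counts have no background to be judged by. At HF1h, 3 members were called higher (8.82%, against 0.649% of all genes). At HF3h, 8 were called higher (23.5%, against 2.97% of all genes and 5.79% of genes with a mean of 6 or more). The median change of all members from fasting ran from 0.01 at HF30min to 0.16 at HF3h, while the median of all genes stayed between -0.02 and 0.01 in the 6 fed pools.

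Leaving out single arrays lowered several of these counts. Without either fasting array 0 members were called at HF1h, and without Fasting replicate 1, Fasting replicate 2 or LF30min replicate 1 the count at LF30min was 0. The count at LF3h was 2 without Fasting replicate 2 or LF3h replicate 1, and the count at HF3h was 5 without Fasting replicate 1 or HF3h replicate 2.

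**Figure D2:**
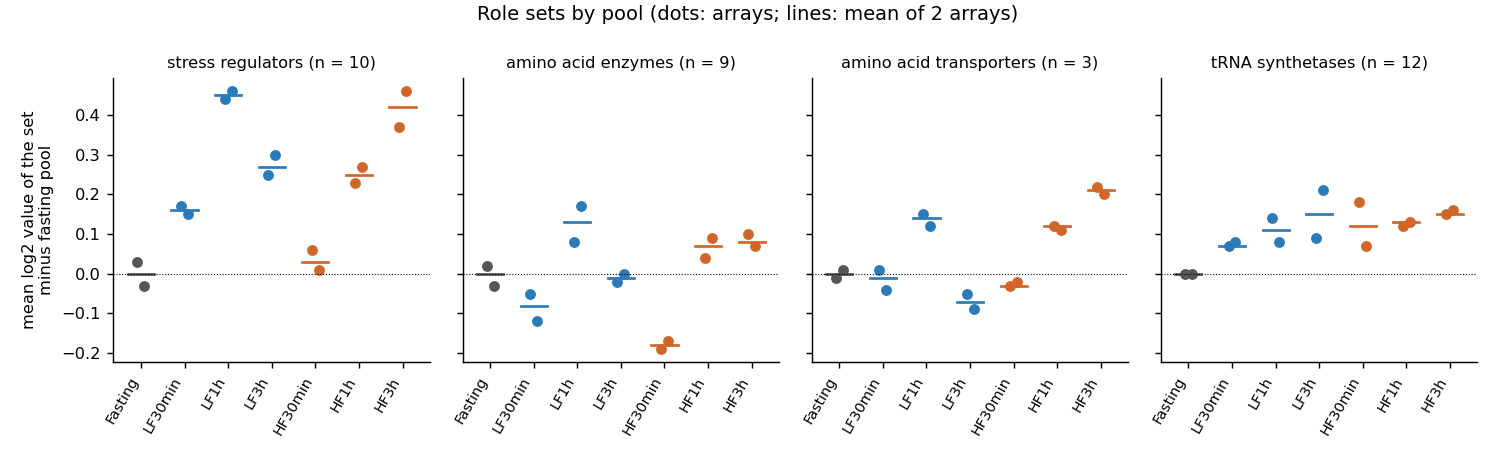
Mean log2 value of each role set minus its fasting mean, by pool; each dot is an array, lines are means of 2 arrays, and grey, blue and orange stand for Fasting, LF and HF. The stress regulators stand 0.45 above fasting at LF1h and 0.41 at HF3h, whereas the tRNA synthetases stand between 0.08 and 0.16 above it in every fed pool.

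The role sets differed in how far their mean level moved. Averaged over its 10 genes, the stress regulator set stood at 6.57 and 6.51 on the fasting arrays, at 6.98 and 7.0 at LF1h, and at 6.91 and 7.0 at HF3h. The enzyme set stood at 6.73 and 6.68 on the fasting arrays, and its lowest arrays were those of HF30min, at 6.52 and 6.54. The tRNA synthetase set stood at 7.28 on both fasting arrays, and all fed arrays lay between 7.35 and 7.49. These set means describe the lists and were not tested. They depend on the single probe set taken for each gene and on its brightness. A mean of 6 or more was reached by 4 of the 9 enzymes and 12 of the 12 synthetases. For Phgdh, Mthfd2 and Psat1, other probe sets rose more at HF3h than the one used, as described below.

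Among the stress regulators, Atf4 itself encodes the transcription factor of the response. Its values on the 2 arrays of each pool were 9.33 and 9.29 at Fasting, 9.88 and 9.76 at LF30min, 10.06 and 10.11 at LF1h, 9.81 and 9.90 at LF3h, 9.67 and 9.58 at HF30min, 9.87 and 9.80 at HF1h, and 9.73 and 9.73 at HF3h. All 12 fed arrays lay above both fasting arrays, and LF1h was the highest pool. Atf4 rose by 0.51 at LF30min (SE 0.08, adjusted p = 0.014), by 0.78 at LF1h (adjusted p = 0.00013, 1.71-fold) and by 0.54 at LF3h (adjusted p = 0.0019). After the HF meal it rose by 0.52 at HF1h (adjusted p = 0.0066) and by 0.42 at HF3h (adjusted p = 0.0083), while its difference of 0.31 at HF30min was not called (adjusted p = 0.11).

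The calls for Atf4 at LF1h and LF3h held without each of the 4 arrays compared, with adjusted p of at most 0.0035 and 0.033. The HF3h call was lost without any of the 4 arrays (adjusted p 0.052 to 0.074), the HF1h call without either fasting array or HF1h replicate 1 (up to 0.077), and the LF30min call without either fasting array or LF30min replicate 1 (up to 0.13). Of the other 2 Atf4 probe sets, with means of 8.02 and 5.6, changes at LF1h ranged from -0.05 to 0.72 and at HF3h from 0.12 to 0.67. The brighter of them was also called at HF30min, at 0.57 (adjusted p = 0.044).

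**Figure D3:**
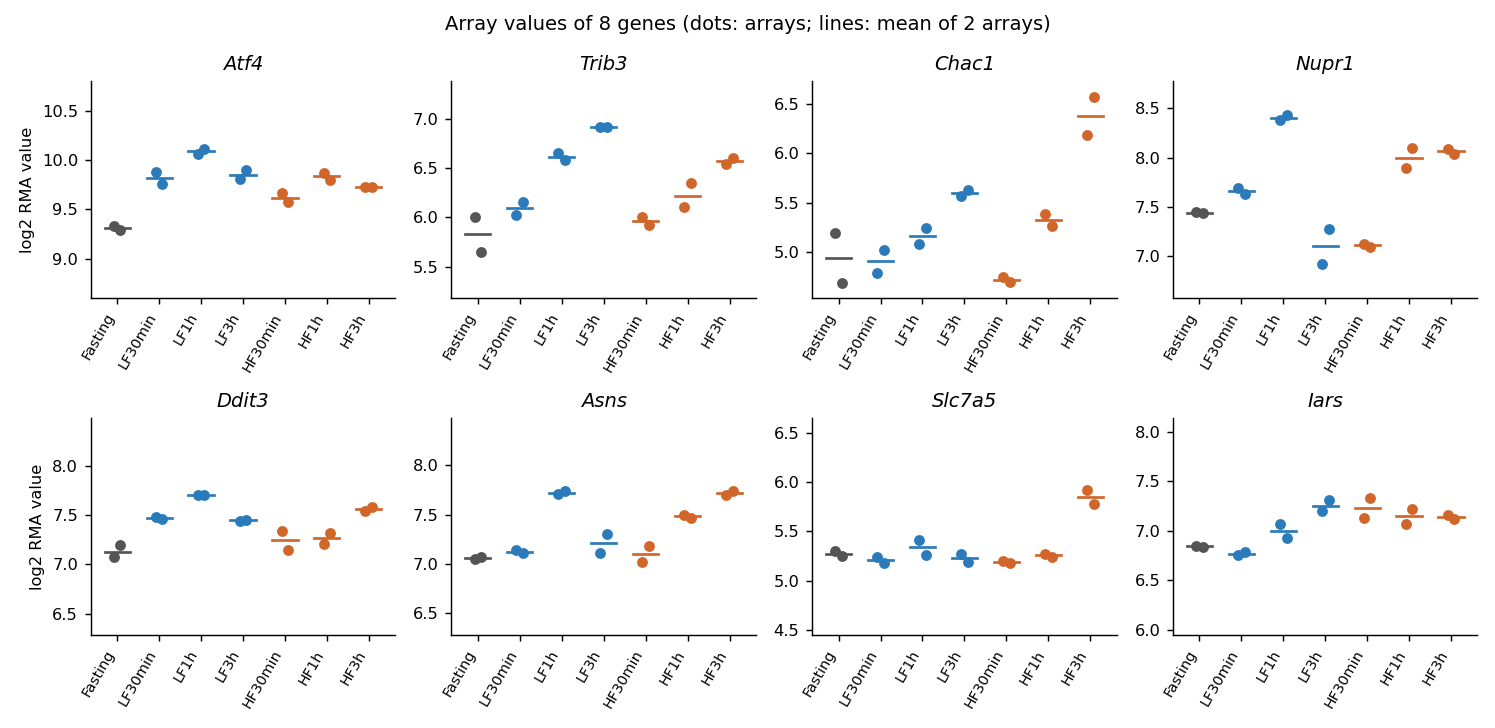
Log2 RMA values of 8 genes on each array (dots) and pool means (lines), with Fasting in grey, LF pools in blue and HF pools in orange; every panel spans the same 2.2 log2 units. Trib3 peaks at LF3h (6.91), Chac1 and Slc7a5 at HF3h (6.38 and 5.85), and Nupr1 and Atf4 at LF1h (8.40 and 10.09).

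Trib3 encodes a pseudokinase that is induced by ATF4 and feeds back on it. Its values were 6.0 and 5.65 at Fasting, 6.02 and 6.16 at LF30min, 6.65 and 6.58 at LF1h, 6.91 and 6.91 at LF3h, 6.0 and 5.92 at HF30min, 6.10 and 6.35 at HF1h, and 6.54 and 6.60 at HF3h. The LF pools climbed in order of time, and the arrays of LF1h, LF3h and HF3h lay above both fasting arrays by more than the 2 fasting arrays differed from each other. Trib3 rose by 0.78 at LF1h (SE 0.12, adjusted p = 0.0024), by 1.08 at LF3h (adjusted p = 0.00013, 2.12-fold) and by 0.74 at HF3h (adjusted p = 0.0016). These 3 calls held without each of the 4 arrays compared. A second Trib3 probe set changed by 1.07 at LF3h and 0.76 at HF3h, and it was not called at LF1h (0.53, adjusted p = 0.1). Within a meal, Trib3 was higher at 3 h than at 30 min by 0.82 for LF (adjusted p = 0.0013) and by 0.61 for HF (adjusted p = 0.0061), and the latter call was lost without HF30min replicate 2 or HF3h replicate 2 (adjusted p up to 0.062).

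Chac1 encodes a gamma-glutamylcyclotransferase that breaks down glutathione. Its values were 5.19 and 4.69 at Fasting, 4.79 and 5.02 at LF30min, 5.08 and 5.24 at LF1h, 5.57 and 5.63 at LF3h, 4.75 and 4.70 at HF30min, 5.38 and 5.26 at HF1h, and 6.18 and 6.57 at HF3h. The HF3h arrays stood above all other arrays, and the fasting arrays differed from each other by more than those of any other pool. Chac1 rose by 1.44 at HF3h (SE 0.16, adjusted p = 7.7e-05, 2.71-fold) and by 0.66 at LF3h (adjusted p = 0.027). The HF3h call held without each of the 4 arrays, with changes of 1.19 to 1.68, whereas the LF3h call was lost without Fasting replicate 2, LF3h replicate 1 or LF3h replicate 2 (adjusted p up to 0.23). From HF30min to HF3h the gene rose by 1.65 (adjusted p = 1.9e-05, 3.14-fold), the largest change of any member in the 11 comparisons, and from LF30min to LF3h it rose by 0.69 (adjusted p = 0.025).

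Nupr1 encodes a small stress-induced chromatin protein. Its values were 7.45 and 7.44 at Fasting, 7.69 and 7.63 at LF30min, 8.38 and 8.43 at LF1h, 6.92 and 7.28 at LF3h, 7.13 and 7.09 at HF30min, 7.89 and 8.10 at HF1h, and 8.09 and 8.04 at HF3h. The LF1h, HF1h and HF3h arrays stood above all others, and the LF3h and HF30min arrays lay below both fasting arrays. Nupr1 rose by 0.96 at LF1h (SE 0.11, adjusted p = 0.00027, 1.95-fold), by 0.56 at HF1h (adjusted p = 0.031) and by 0.63 at HF3h (adjusted p = 0.004). Its differences of -0.34 at LF3h and -0.33 at HF30min were not called (adjusted p = 0.11 and 0.22). The HF1h call was lost without either fasting array or HF1h replicate 2 (adjusted p up to 0.26), and a second Nupr1 probe set, given because the probes of the one used can match other transcripts, changed by 1.1 at LF1h and 0.77 at HF3h. That probe set also fell at LF3h, by 0.50 (adjusted p = 0.03).

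The remaining stress regulators split into 3 with a call and 3 without. Ddit3, which encodes the ER stress factor CHOP, rose from 7.07 and 7.2 at Fasting to 7.70 and 7.70 at LF1h (0.57, SE 0.09, adjusted p = 0.0039) and to 7.54 and 7.58 at HF3h (0.43, adjusted p = 0.012). Its LF1h call was lost without Fasting replicate 1 (adjusted p = 0.071). The HF3h call was lost without Fasting replicate 1 or either HF3h array (adjusted p up to 0.13). A second Ddit3 probe set changed by 0.61 at LF1h and by 0.06 at HF3h. That probe set was also called higher at LF30min (0.73, adjusted p = 0.022), beside 0.34 on the one used. From LF30min to LF3h it was called lower (-0.65, adjusted p = 0.013), beside -0.02 on the one used. Cebpb, which encodes a C/EBP partner of ATF4, rose from 7.08 and 7.06 at Fasting to 7.83 and 7.63 at LF1h (0.66, SE 0.09, adjusted p = 0.0011) and was at 7.02 and 7.15 at HF3h. A second Cebpb probe set, dim with a mean of 5.21, differed by 0.31 at LF1h (adjusted p = 0.34). Atf5, a related transcription factor, was dim and rose by 0.46 at HF3h (SE 0.11, adjusted p = 0.025), a call lost without either fasting array or HF3h replicate 2 (up to 0.20).

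Cebpg, Sesn2 and Stc2 passed no test against fasting on the probe sets used. Cebpg, another C/EBP partner, differed from fasting by 0.06 to 0.23. One of its other 2 probe sets, dim with a mean of 5.67, lay on the opposite side in every fed pool, between -0.44 and -0.29, and was called lower at HF3h (adjusted p = 0.04). Sesn2, which encodes a leucine sensor upstream of mTORC1, lay between 0.27 and 0.06 below fasting in all 6 fed pools and was dim throughout. Stc2, which encodes a secreted glycoprotein, ranged from -0.18 to 0.08 and was also dim.

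On the probe sets used, Asns was the amino acid enzyme gene that rose against fasting. It encodes the enzyme that makes asparagine from aspartate and is a classical ATF4 target. Its values were 7.05 and 7.07 at Fasting, 7.14 and 7.11 at LF30min, 7.71 and 7.74 at LF1h, 7.11 and 7.30 at LF3h, 7.02 and 7.18 at HF30min, 7.50 and 7.46 at HF1h, and 7.70 and 7.74 at HF3h. The arrays of LF1h, HF1h and HF3h stood apart above the other 8. Asns rose by 0.66 at LF1h (SE 0.09, adjusted p = 0.001, 1.58-fold), by 0.42 at HF1h (adjusted p = 0.045) and by 0.66 at HF3h (adjusted p = 0.00051). The HF1h call was lost without any of the 4 arrays (adjusted p 0.15 to 0.25) and with the replicate number as a block (adjusted p = 0.051). A second Asns probe set, with a mean of 5.82, changed by 0.77 at LF1h and 1.01 at HF3h and was not called at HF1h (0.49, adjusted p = 0.089).

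On the probe sets used, the other 8 enzymes passed no test against fasting, with changes between -0.50 and 0.37 and adjusted p of at least 0.086. They included the serine pathway enzymes Phgdh, Psat1 and Psph, the mitochondrial folate enzymes Shmt2 and Mthfd2, the proline enzyme Aldh18a1, the transsulfuration enzyme Cth and the alanine aminotransferase Gpt2. Both extremes were values of Psat1, at HF30min and at LF1h.

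Other probe sets of 3 of these enzymes were called higher. Phgdh, which encodes the first enzyme of serine synthesis, changed at HF3h by 0.29 on the probe set used, and by 0.97 (adjusted p = 8.5e-05), 0.90 (adjusted p = 0.00014) and 0.16 (adjusted p = 0.55) on its other 3, which have means of 6.57 to 6.70. The 2 probe sets called at HF3h were also called at LF1h, at 0.62 and 0.65, and at HF1h, at 0.60 and 0.56. The other probe set of Mthfd2, with a mean of 5.31, changed by 0.78, 0.68 and 0.88 at LF1h, LF3h and HF3h (adjusted p = 0.011, 0.014 and 0.002), beside 0.17 at HF3h on the one used. The other probe set of Psat1, with a mean of 4.12, changed by 0.89 at HF3h (adjusted p = 0.0026), beside 0.33 on the one used. For these genes the result therefore depended on the probe set.

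Between HF30min and HF3h, Psat1 rose from 3.63 and 3.59 to 4.32 and 4.56 (0.83, SE 0.13, adjusted p = 0.0011) and Mthfd2 from 5.30 and 5.26 to 5.71 and 5.78 (0.47, SE 0.09, adjusted p = 0.0055). Both genes were dim, and the Mthfd2 call was lost without HF30min replicate 2 or HF3h replicate 2 (adjusted p up to 0.055).

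Of the transporters, Slc7a5 changed at HF3h. It encodes LAT1, the light chain of a carrier for large neutral amino acids. Its values were 5.30 and 5.25 at Fasting, 5.24 and 5.18 at LF30min, 5.41 and 5.26 at LF1h, 5.27 and 5.19 at LF3h, 5.20 and 5.18 at HF30min, 5.27 and 5.24 at HF1h, and 5.92 and 5.78 at HF3h. The other 12 arrays lay between 5.18 and 5.41, below both HF3h arrays. Slc7a5 rose by 0.58 at HF3h (SE 0.09, adjusted p = 0.0012, 1.49-fold from a dim level), and the call held without each of the 4 arrays. Slc3a2, the heavy chain with which LAT1 pairs, was at 10.63 at HF3h and 10.69 at Fasting, with its largest difference at LF1h (0.24, adjusted p = 0.24). Slc7a11, the cystine carrier, was dim in every pool, between 2.91 and 3.28.

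Of the tRNA synthetases, 1 was called on the probe sets used. Iars, which charges the isoleucine tRNA, was at 6.85 and 6.84 at Fasting, 6.76 and 6.79 at LF30min, 7.07 and 6.93 at LF1h, 7.2 and 7.31 at LF3h, 7.13 and 7.33 at HF30min, 7.07 and 7.22 at HF1h, and 7.16 and 7.12 at HF3h. All arrays apart from those of LF30min lay above both fasting arrays. Iars rose by 0.41 at LF3h (SE 0.10, adjusted p = 0.025, 1.33-fold) and by 0.48 from LF30min to LF3h (adjusted p = 0.013). The call against fasting was lost without any of the 4 arrays (adjusted p 0.064 to 0.21), and the call against LF30min without either LF30min array or LF3h replicate 2 (up to 0.13). A second Iars probe set changed by 0.65 at LF3h against fasting and by 0.46 between LF30min and LF3h. That probe set was called at HF3h (0.41, adjusted p = 0.026), where the one used was not.

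On the probe sets used, the other 11 synthetases passed no test against fasting. They were Aars, Cars, Eprs, Gars, Lars, Mars, Nars, Sars, Tars, Wars and Yars, named for the amino acid that each loads, and their changes lay between -0.10 and 0.26 with adjusted p of at least 0.15. All 12 synthetases had values above fasting at LF1h and at HF3h, with medians of 0.11 and 0.17 beside medians of -0.01 and 0.00 over all genes. At an unadjusted p under 0.05, 1 synthetase differed at LF1h and 4 at HF3h, with no share of all genes to set beside them. Aars, Eprs, Sars, Tars and Wars lay above fasting in all 6 fed pools, with largest differences of 0.24, 0.24, 0.26, 0.25 and 0.20, none of them called. A second Nars probe set, with a mean of 8.56, rose by 0.34 at LF3h and by 0.32 at HF3h, with adjusted p of 0.034 and 0.04.

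The meals differed at 3 h, when Nupr1, Chac1, Slc7a5 and Asns were higher with HF than with LF on the probe sets used. At HF30min against LF30min, 0 members were called by limma (0.55% of all genes), and at HF1h against LF1h likewise 0 (0.225%). At an unadjusted p under 0.05 the counts were 6 (2 higher and 4 lower with HF) and 8 (1 higher and 7 lower). With limma-trend the adjusted counts were 2 at 30 min and 4 at 1 h, and among members with a mean of 6 or more they were 2 and 3. At 30 min the count was also 2 after quantile normalization, and 1 after centring or with probe sets averaged. At HF3h against LF3h, 4 members were called higher with HF (11.8%, against 1.19% of all genes) and 0 lower (1.01% of all genes). At an unadjusted p under 0.05, 7 were higher there and 4 lower. The unadjusted counts between the meals and those under the alternatives have no share of all genes beside them.

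**Figure D4:**
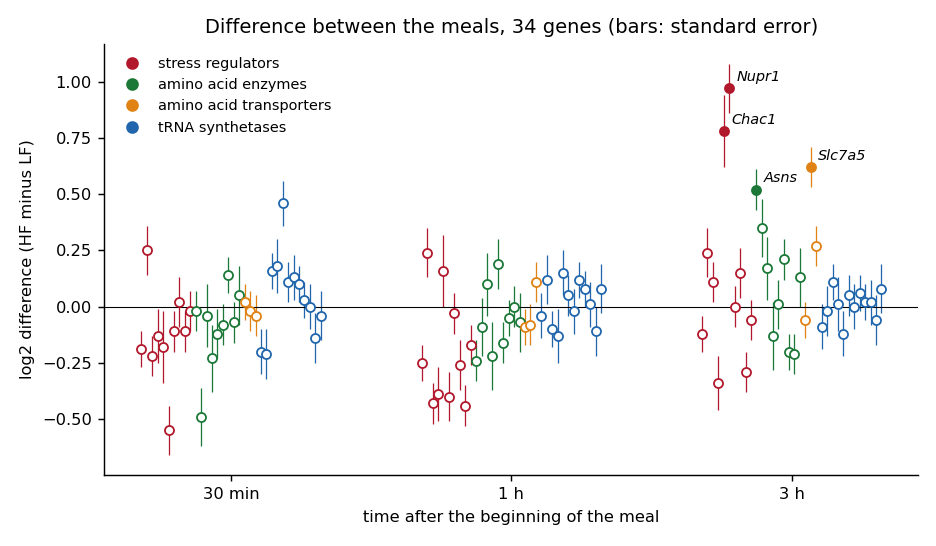
Difference between the HF and LF pools (log2, vertical axis) for the 34 genes at 30 min, 1 h and 3 h; dots are coloured by role, filled where the adjusted p was under 0.05, and bars are standard errors. The filled dots are Nupr1, Chac1, Slc7a5 and Asns at 3 h, and the tRNA synthetases lie between -0.12 and 0.11 at that time.

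The largest difference between the meals at 3 h on the probe sets used was that of Nupr1, at 0.97 (95% interval 0.73 to 1.21, adjusted p = 0.00029). Its LF3h arrays were below both fasting arrays and its HF3h arrays above them. Chac1 differed by 0.78 (0.44 to 1.11, adjusted p = 0.023), Slc7a5 by 0.62 (0.43 to 0.81, adjusted p = 0.0018) and Asns by 0.52 (adjusted p = 0.0093). The calls for Nupr1 and Slc7a5 held without each of the 4 arrays, whereas that of Chac1 was lost without either LF3h array or HF3h replicate 2 (adjusted p up to 0.16) and that of Asns without LF3h replicate 1 or either HF3h array (up to 0.096). The count was 2 without LF3h replicate 1 and 2 without HF3h replicate 2. Other probe sets of Phgdh were also called higher with HF at 3 h, at 0.97 (adjusted p = 0.00016) and 0.69 (adjusted p = 0.0041). A further Phgdh probe set differed by 0.25 (adjusted p = 0.31), and the one used by 0.17.

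Not every stress regulator was higher with HF at 3 h. Trib3 was 0.34 lower at HF3h than at LF3h (95% interval -0.59 to -0.09, adjusted p = 0.18), and Cebpb was 0.29 lower (-0.49 to -0.10, adjusted p = 0.13). Atf4 differed by -0.12 (adjusted p = 0.51). At 1 h the members furthest below the LF pool were Cebpb (-0.44) and Ddit3 (-0.43), both with an adjusted p of 0.088, and at 30 min Iars was 0.46 higher with HF (adjusted p = 0.063) and Nupr1 0.55 lower (95% interval -0.79 to -0.31, adjusted p = 0.055).

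Within each meal, the later pool was compared with the 30 min pool. From LF30min to LF3h, 3 members rose and 1 fell on the probe sets used (4.31% of all genes were called in either direction). Trib3, Chac1 and Iars rose, and Nupr1 fell by 0.56 (SE 0.11, adjusted p = 0.013), a call lost without either LF30min array or LF3h replicate 1 (adjusted p up to 0.13). Without LF30min replicate 1 the count was 1. From HF30min to HF3h, 7 members rose on the probe sets used (20.6%, against 3.08% of all genes called higher). They were Chac1, Nupr1, Psat1, Slc7a5, Asns, Trib3 and Mthfd2. Phgdh was not called there on the probe set used (0.46). Its other probe sets changed by 1.08 (adjusted p = 2.7e-05), 0.97 (adjusted p = 8.9e-05) and 0.27 (adjusted p = 0.19). Nupr1 rose there by 0.96 (adjusted p = 0.00014), Slc7a5 by 0.66 (adjusted p = 0.00037) and Asns by 0.62 (adjusted p = 0.00077). In the same comparison 19 of the 20 pancreatic acinar markers described below rose, with a median of 1.59, and 9 of 9 stomach and Brunner gland markers fell, and their part in these rises was not tested.

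Related genes outside the set were described from lists of the same pathway. Of 20 other ATF4 targets, Atf3, a stress-induced transcription factor, rose by 1.16 at LF1h (SE 0.08, adjusted p = 2.4e-06, 2.24-fold), Slc38a2, which encodes the glutamine carrier SNAT2, by 0.71 at LF1h (adjusted p = 8e-04), and Aldh1l2, a mitochondrial folate enzyme, by 0.72 at HF3h from a dim level (adjusted p = 0.0017). In that list 1, 3, 1, 1, 1 and 2 genes were called higher at LF30min, LF1h, LF3h, HF30min, HF1h and HF3h, and 1 was called lower at LF3h. Among 13 genes for the eIF2 kinases, its phosphatase and its exchange factor eIF2B, Eif2ak3, which encodes PERK, rose by 0.44 at HF3h (adjusted p = 0.0078), and Eif2b4 by 0.35 at LF3h (adjusted p 0.05 after rounding). The other 11 passed no test against fasting.

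Synthetase genes beyond the 12 members also had few calls. Of 10 other cytosolic synthetases and scaffold proteins, Eef1e1, a scaffold of the multi-synthetase complex, rose by 0.73 at LF3h (SE 0.09, adjusted p = 0.00044) and was also called at HF3h, and the other 9 passed no test against fasting. Of 16 mitochondrial synthetases, Tars2 fell by 0.51 at HF3h (SE 0.11, adjusted p = 0.016), and the medians of that list lay between -0.08 and -0.01 in the 6 fed pools. The letters of the response element were in 0 of 7 windows of the former list, 0 of 14 of the latter, 0 of 10 of the eIF2 list and 7 of 16 of the other ATF4 targets.

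The tissue label was checked against markers of its cells. The summed linear signal of 11 enterocyte markers stayed between 97.8% and 105% of fasting in the fed pools. Markers of other tissues moved between pools, and in bulk RNA fewer cells of a type and less RNA per cell cannot be told apart. The summed signal of 20 pancreatic acinar markers was 155% of fasting at LF1h, 140% at HF1h and 150% at HF3h, and it was 96.2% at LF30min, 86% at LF3h and 64.8% at HF30min. Zg16, among the brightest of the 20, stayed between 13.89 and 13.95 in every pool, which draws this sum towards that of fasting. Against fasting, 17, 16 and 18 of the 20 rose at LF1h, HF1h and HF3h, 4 fell at LF3h and 15 fell at HF30min. The 2 arrays of a pool differed in this sum by less than the pools did, and the transcription factor genes Ptf1a and Rbpjl were the acinar markers with pool means under 6, apart from Ptf1a at HF3h.

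**Figure D5:**
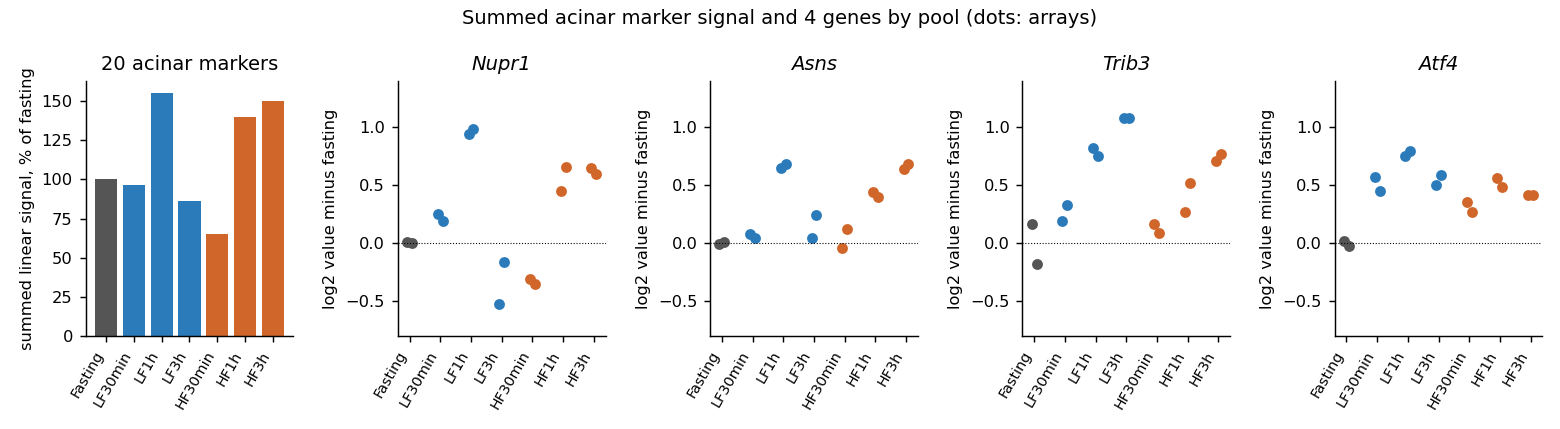
Left, summed linear signal of 20 pancreatic acinar markers by pool as a percentage of fasting (bars from 0); right, log2 values of Nupr1, Asns, Trib3 and Atf4 minus the fasting mean, each dot an array. Nupr1 and Asns are highest in the 3 pools with the highest acinar sum, whereas Trib3 is highest at LF3h, where that sum was 86% of fasting.

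The calls were set beside this acinar sum. Nupr1 and Asns were called against fasting at LF1h, HF1h and HF3h, the 3 pools with the highest acinar sum. They were called in no other pool on the probe sets used. Phgdh, uncalled on the probe set used, had the same pattern of calls on 2 of its other 3. Calls of members were most numerous at HF3h (8) and LF1h (6), with 4 at LF3h and 3 at HF1h. Between the meals at 3 h, where Nupr1, Chac1, Slc7a5 and Asns were higher with HF, 18 of the 20 acinar markers, 3 of 5 islet markers, 4 of 9 stomach and Brunner gland markers and 3 of 5 adipocyte markers were higher with HF too. Atf4, Trib3, Chac1 and Iars rose at LF3h, where 0 acinar markers rose and 4 fell, and Atf4 rose at LF30min, where 0 of the 20 were called. Other markers moved in these pools. At LF30min 5 of 9 stomach and Brunner gland markers were called higher and 2 of 5 islet markers lower. At LF3h 3 of the former and 2 of the latter were called lower. The part of RNA from acinar cells or other tissues in any of these changes was not tested.

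Other marker sums also moved. Stomach and Brunner gland markers reached 735% of fasting at LF30min, 887% at HF30min and 402% at HF3h, and were at 82.7% at LF3h. Islet markers were at 295% at HF30min and 202% at HF3h, but at 46.5% at LF30min and 36.9% at LF3h. Adipocyte markers were at 178% at HF3h and 113% at LF3h. Of the adipocyte markers, Cidec stood at 8.32 at Fasting and 9.33 at HF3h, and Fabp4 at 6.87 and 7.46. Cidec was the brightest and so weighs most in the linear sum. The other 3 were dim, with Retn at 5.68 and 5.86, Adipoq at 3.12 and 4.08, and Lep, a defining marker, at 3.49 and 3.48. The part of these tissues in the results was not tested.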

How the data were processed

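Per the labels and the study's methods, total RNA of scraped duodenal mucosa was pooled within each group and hybridised in duplicate to Affymetrix mouse GeneChips. The authors subtracted background, normalised and summarised the probe sets by RMA, and deposited log2 values, which were used as they stood. The log base is not written beside the values and was taken as 2 from RMA and from their range, so fold values rest on it. Of 45101 probe sets, 64 controls were left out and 45037 tested. The platform annotation named a single gene for 34945, several for 932 and none for 9160. Only single-gene probe sets stand for genes, the one with the highest mean for each.

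One mean per pool was fitted to all 14 arrays with limma 3.58.1 (lmFit, eBayes) in R 4.3.3, with 7 residual degrees of freedom. Benjamini-Hochberg adjustment ran over all tested probe sets within each of 11 comparisons. The script was tested on simulated data. The number of arrays limits the precision, with a median SE of 0.11. Correlations between paired arrays ran from 0.9958 to 0.9971. Beta-actin 3′ minus 5′ signal was lowest at LF3h, at 0.398, and 0.429 to 0.525 elsewhere.

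Members and gene lists were chosen with earlier results of these data known. Array values are given for Atf4, for members past a 2-fold change with an adjusted p under 0.05, and for the 4 members of each role with the largest called change from fasting. Up to 3 genes are named from each other list. Atf5, Ddit3, Cebpb, Psat1, Mthfd2, other probe sets and members without a call were named after their values were seen. Alternatives covered the variance model, samples in the fit, scaling, a replicate block, dim probe sets, the choice of probe set, thresholds and single left-out arrays. Promoter sequences are from RefSeq (GRCm38.p6), with windows for 28 of 34 members. The plots used matplotlib 3.10.9 under Python 3.11.15.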

Additional observations from a re-analysis of the deposited data

Results flagged for a closer look

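At 3 h, the change from fasting differed between the meals for 4 members on the probe sets used. This was limma's test of HF3h against LF3h, which share the fasting pool as reference. The difference was 0.97 for Nupr1, 0.78 for Chac1, 0.62 for Slc7a5 and 0.52 for Asns on the log2 scale, each higher with HF on both arrays. In the same pools 18 of 20 pancreatic acinar markers, 3 of 5 islet markers, 4 of 9 stomach and Brunner gland markers and 3 of 5 adipocyte markers were higher with HF, and their part in the result was not tested.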

How the results depend on the processing

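No called change reversed under the alternatives run, and robust eBayes left each count as it was. Of 37 called changes, 37 were kept with limma-trend, with quantile normalization and with arrays centred on brighter probe sets, 36 with the replicate block, 35 with all probe sets of a gene averaged and 25 with the 4 compared arrays alone. With 1 array left out, 98 of 148 calls were kept. Scaling moved the median of all genes by at most 0.065.

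Counts of called members moved as follows. The share of all genes called under each alternative is not given, so a shift in a count does not say that members moved more than other genes. With limma-trend they were 2 at LF30min, 7 at LF3h, 4 at HF30min and 5 at HF1h against fasting, 2 for HF30min against LF30min and 4 for HF1h against LF1h. With the 4 compared arrays alone they were 0 at LF30min, 3 at LF1h, 0 at HF1h, 2 for HF3h against LF3h and 2 for LF3h against LF30min. With means of 6 or more only they were 3 at LF30min, 2 at HF30min, 6 at HF1h, 2 for HF30min against LF30min and 3 for HF1h against LF1h. With all probe sets averaged they were 1 at HF30min, 5 at HF1h, 1 for HF30min against LF30min and 7 for HF3h against LF3h. Without probe sets that may share sequence with other transcripts they were 1 at HF1h, 2 for LF3h against LF30min and 4 for HF3h against HF30min. For HF30min against LF30min the count was 2 after quantile normalization and 1 after centring. At an adjusted p under 0.01 the count was 0 at LF30min, 2 at LF3h, 1 at HF1h and 1 for LF3h against LF30min. With a 2-fold minimum added it was 0 at LF30min, LF1h and HF1h, 1 at LF3h and HF3h, 0 for HF3h against LF3h, 0 for LF3h against LF30min and 1 for HF3h against HF30min.

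With each array left out in turn, counts ranged from 0 to 1 at LF30min, 5 to 6 at LF1h, 2 to 4 at LF3h, 0 to 3 at HF1h and 5 to 8 at HF3h, and stayed at 0 at HF30min. They ranged from 0 to 1 for HF30min against LF30min, 2 to 4 for HF3h against LF3h, 1 to 4 for LF3h against LF30min and 5 to 8 for HF3h against HF30min, and stayed at 0 for HF1h against LF1h. Role-set medians moved by more than the array spread in 21 of 216 settings, by at most 0.32.

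With the replicate block, counts were 1, 6, 4, 0, 2 and 8 at LF30min, LF1h, LF3h, HF30min, HF1h and HF3h against fasting. Only 3 of 21 pool pairs had deviations of same-numbered arrays correlated over 0.1 (range -0.33 to 0.27), so the numbers did not pair the arrays. With 1 pool per condition, no result separates meal or time from the particular mice pooled or from the dissection. The cause of the shifts in count was not tested, and dim probe sets limit what can be seen of Atf5, Chac1, Slc7a5, Psat1, Mthfd2, Sesn2, Stc2 and Slc7a11.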
